A study of Arabidopsis thaliana with 8 samples.

Results

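The ndh genes of the small single copy region of the Arabidopsis plastid genome were followed through a contact map made by Hi-C, which ligates neighbouring pieces of DNA and counts the ligated pairs by sequencing. The map has 155 bins of 1 kb, and the genes ndhF, ndhD, psaC, ndhE, ndhG, ndhI, ndhA and ndhH were represented by the bins from 111001 to 113000 and from 115001 to 124000 of the plastid chromosome (Pt, TAIR10). All bin pairs with at least 1 of these 11 bins, called NDH bins here, were taken, which gave 1650 of 12090 pairs. The rule takes bins by map position and uses no measured value, although the genes were picked for description with earlier results of these data known. The bins do not match the genes exactly: ndhF also reaches into the repeat bin at 110001, ccsA shares the bin at 115001, and rps15 and the end of ycf1 share the bin at 123001.

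Libraries came from chloroplast membranes of rosette leaves of 14-day-old wild-type plants of the Col0 ecotype, each harvest pooling leaves. The 4 crosslinked libraries are labelled as treated with EGS, a crosslinker that bridges proteins, and formaldehyde, which links proteins and DNA, at 5 mM for 45 min and 4% for 4 h. The 4 non-crosslinked libraries, labelled nox, are the negative controls of ligation without crosslinks. The protocol text names the crosslinking steps for all 8 libraries, so the treatment label and the title alone separate the groups. Nothing states that replicates came from separate harvests, so p-values measure the spread between these libraries, which may be technical. The table holds contacts within the plastid chromosome only, so the membrane label was not checked against other DNA.

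The chloroplast NDH complex sits in the thylakoid membrane and returns electrons from ferredoxin to the plastoquinone pool, a route of cyclic electron flow around photosystem I. The genes ndhA, ndhD, ndhE, ndhF and ndhG encode subunits of its membrane arm, and ndhH and ndhI encode subunits of the arm that faces the stroma. psaC encodes an iron-sulphur subunit of photosystem I itself. In plants, ndhH, ndhA, ndhI, ndhG, ndhE, psaC and ndhD lie head to tail and are transcribed together, while ndhF is transcribed on its own. The remaining plastid ndh genes lie elsewhere, ndhC, ndhK and ndhJ in the large single copy region and ndhB in the inverted repeat.

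Library totals ranged from 351828 to 708524 contacts, and replicates 1 and 2 were deeper than replicates 3 and 4 in both groups. NDH bins took part in 28617 to 45580 contacts per crosslinked library and 33162 to 63453 per non-crosslinked library, which was 8.13% to 8.38% and 8.20% to 9.55% of all contacts, with overlapping ranges. The widest Wilson 95% interval of these shares, that of non-crosslinked replicate 3, ran from 9.19% to 9.38%. Intervals cover counting error only. Contacts further than 5 kb apart, called long-range, were the scarce ones. Over the whole map, crosslinked replicates 1 to 4 had 53273, 29231, 17612 and 10979 of them and the controls 50625, 32409, 2649 and 4228. The NDH bins held 7182, 4524, 2441 and 1638 of them in crosslinked replicates 1 to 4, against 8764, 5436, 476 and 817 in the controls. Over bin pairs with at least 10 contacts, chi-square divided by its degrees of freedom was 1.48 to 3.97 between crosslinked and 2.12 to 20.6 between non-crosslinked replicates, so all pairs of replicates differed beyond sampling. Over the 24 tested NDH pairs alone it was 1.03 between crosslinked replicates 1 and 3 and 1.18 between 1 and 2, so these libraries were hardly separable there. The other comparisons over these pairs gave 1.88 to 6.96 between crosslinked and 4.61 to 11.3 between non-crosslinked replicates.

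Distances were measured on the circular map with the inverted repeat folded, so that both copies of a repeat bin count as 1 place. The contacts of each bin were split into those within the bin, those with the adjacent bins, those at 2 to 5 kb and those over 5 kb. Values are CPM (the count scaled to a fixed total of contacts of the class), normalised by TMM, and all bins span the same length. Cut sites and mappability per bin were not corrected for here, so the order of levels between bins describes the counts only. Each change is crosslinked over non-crosslinked and is relative to the typical bin of the class. A bin, pair or segment is called changed at an adjusted p under 0.05 over all features tested. With library totals in place of TMM, the median log2 change of all bins moved from -0.02 to 0.34 for bin totals, from -0.01 to -0.13 for same-bin, from -0.01 to 0.40 for adjacent, from 0.03 to 1.57 for 2 to 5 kb and from 0.05 to 0.86 for long-range contacts.

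The total contacts of a bin with all other bins were highest in ndhF and lowest in the psaC bin in both groups. In crosslinked libraries the ndhF bins led with 8777 ± 506 CPM at 111001 and 7396 ± 212 CPM at 112001 (SD, n = 4). The bin at 117001, which holds psaC beside parts of ndhD and ndhE, was lowest with 3375 ± 140 CPM. The ranges of neighbours in this order overlapped between 115001 and 116001 and among the 6 lowest bins, from 123001 at 4015 ± 122 CPM down to 117001. In non-crosslinked libraries the bin at 117001 held 2591 ± 295 CPM and the ndhF bins 10133 ± 2351 CPM at 112001 and 10087 ± 1913 CPM at 111001.

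Of the 11 NDH bins, 2 were called higher and 4 lower in bin totals, where 48.4% of all 155 bins were called. The higher bins were 117001 (log2 change 0.38, SE 0.13; edgeR, adjusted p = 0.0102) and 121001, within ndhA (log2 change 0.38, SE 0.11; edgeR, adjusted p = 0.00311). At 117001 the crosslinked libraries held 3477, 3509, 3291 and 3224 CPM and the controls 2957, 2696, 2305 and 2405 CPM. The groups did not overlap, and the controls of replicates 3 and 4 were lowest. The lower bins were 112001 of ndhF (-0.45), 115001 of ccsA and ndhD (-0.45), 118001 of ndhE and ndhG (-0.31) and 119001 of ndhI and ndhA (-0.35), with SEs of 0.08 to 0.12 and no overlap between groups. Scaled by library totals, 4 NDH bins were called, all of them higher, and 118001 and 119001 turned to 0.06 and 0.01, below the all-bin median of 0.34. With the contacts between repeat copies left out, an alternative added after the data were seen, 117001 and 121001 were no longer called (0.18 and 0.19), and all 6 called NDH bins were lower. Without crosslinked replicate 2 the call at 117001 was also lost (0.36; edgeR, adjusted p = 0.0504).

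Same-bin contacts made up most NDH contacts, 63.9% ± 4.36 in crosslinked and 71.2% ± 5.48 in non-crosslinked libraries (SD, n = 4 each), with overlapping ranges. In this class 6 of the 11 bins were lower and 0 higher, against 51% of all bins called in either direction and 45.8% whose groups did not overlap. The strongest drop was in the psaC bin at 117001, with 7483, 7799, 7344 and 7507 CPM in crosslinked and 9338, 8804, 10316 and 10713 CPM in non-crosslinked libraries (log2 change -0.38, SE 0.06; edgeR, adjusted p = 0.000913). Every control lay above every crosslinked library. The other lower bins were 119001 (-0.31), 115001 (-0.27), 121001 (-0.19), 118001 (-0.17) and 122001 (-0.15). The calls at 118001 and 121001 were fragile: 5 single libraries ended the first when left out (crosslinked 2, 3 or 4, non-crosslinked 3 or 4; values -0.18 to -0.13) and 3 ended the second (crosslinked 3, non-crosslinked 3 or 4; -0.19 to -0.14). Neither ndhF bin was called, with 0.04 at 111001 and -0.04 at 112001. The level order also differed by gene: an ndhA bin at 120001 held the most same-bin contacts in both groups, 12059 ± 334 and 13271 ± 1256 CPM, and the last bin, 123001, the fewest.

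Contacts between adjacent bins took 25.3% ± 1.41 of NDH contacts in crosslinked and 21.3% ± 1.90 in non-crosslinked libraries (SD, n = 4 each), and the groups did not overlap. Summed per bin, 3 NDH bins were higher and 7 lower, where 71.6% of all bins were called, 34.2% lower, and 66.5% had groups without overlap. The psaC bin at 117001 (0.37, SE 0.06) and the inner ndhA bins at 120001 (0.41, SE 0.06) and 121001 (0.38, SE 0.06) were higher, each with an edgeR adjusted p under 0.05 and no overlap between groups. The ndhF bin at 112001 was lowest, at -0.57 on the log2 scale (SE 0.11; edgeR, adjusted p = 0.000479). By library totals, 5 NDH bins were called, all higher, and the called falls at 111001 and 123001 turned to 0.16 and 0.23, still below the all-bin median of 0.40. The calls at 111001 and 123001 were also each lost without any of 5 single libraries, namely crosslinked 1, 3 or 4 and non-crosslinked 3 or 4 for 111001 (-0.24 to -0.19), and crosslinked 1, 2 or 3 and non-crosslinked 3 or 4 for 123001 (-0.19 to -0.13).

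**Figure D1:**
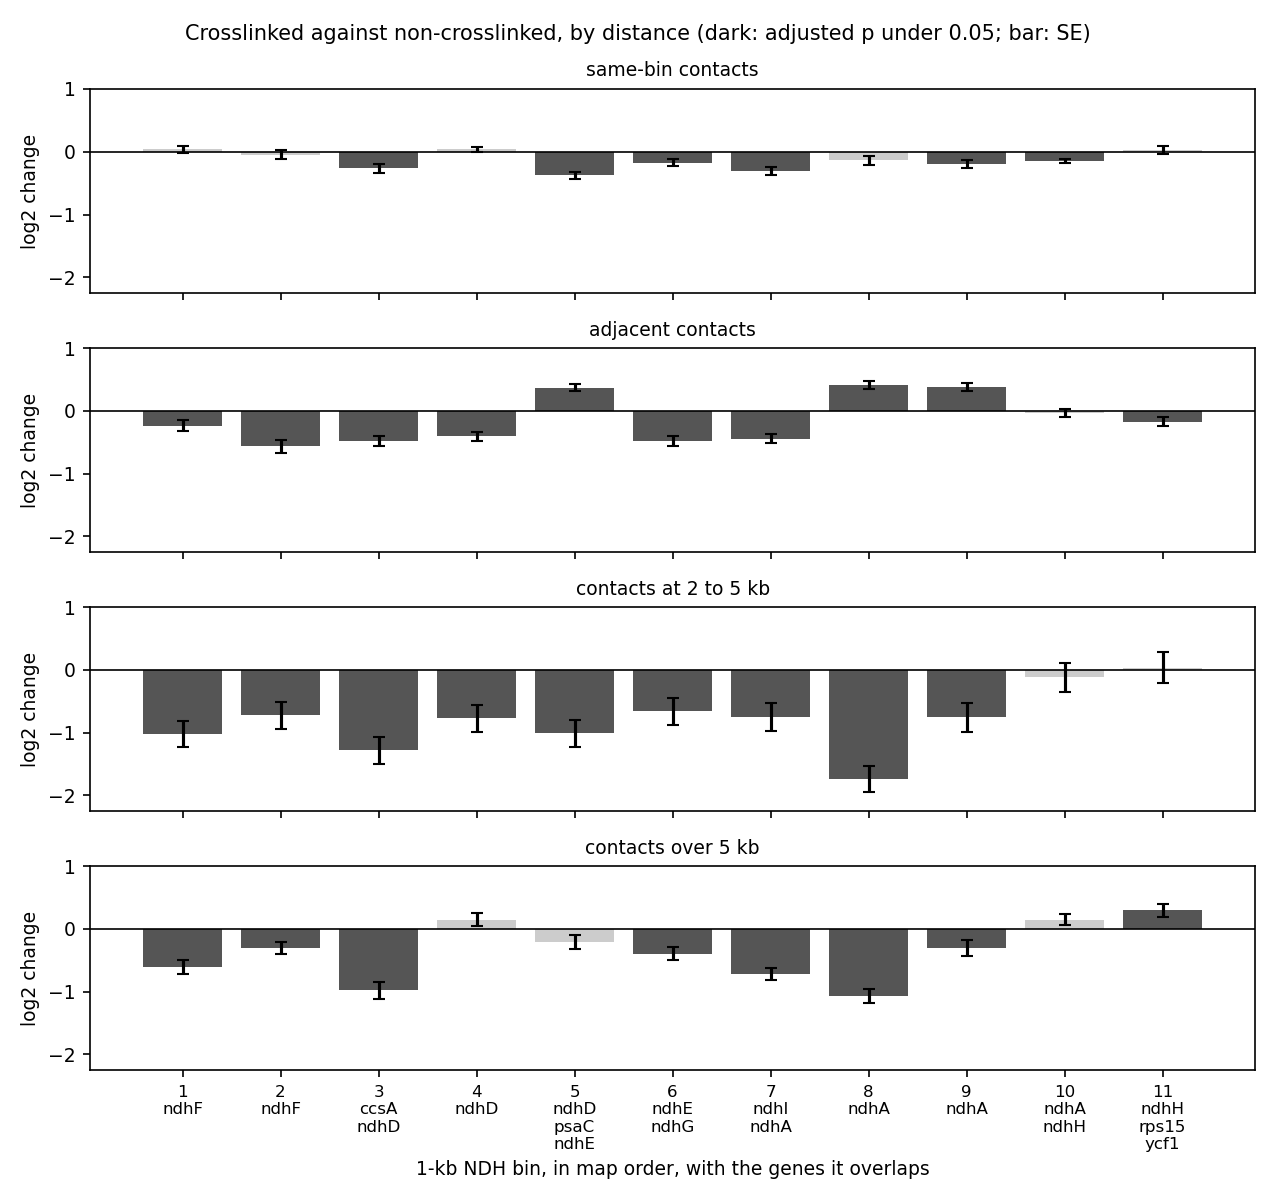
Fitted log2 change, crosslinked over non-crosslinked, of the 11 NDH bins in map order for 4 distance classes, with bars for the SE and dark columns for an adjusted p under 0.05. At 2 to 5 kb the 9 bins from ndhF to the inner ndhA bins were lower, whereas adjacent contacts of the psaC bin and of both inner ndhA bins were higher.

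Single bin pairs gave a sharper view of these short contacts. Of the 1650 NDH pairs, 24 passed the filter on low counts, namely the 11 same-bin pairs and the 13 boundaries between neighbouring bins. The other 1626 pairs held a median of 10 contacts over all crosslinked and 9 over all non-crosslinked libraries, with at most 41 and 43. Of the 24 tested pairs, 6 were higher and 12 lower, where 61.4% of all 381 tested pairs were called, 34.4% higher and 27% lower. All 6 higher pairs were boundaries, and 9 of the 12 lower ones were same-bin pairs. Both kinds were scaled together, and the shares called by kind over the whole map were not counted. Whether this split is particular to NDH pairs was therefore not tested.

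The largest rise lay at the boundary from 116001 into 117001, inside ndhD towards psaC. Crosslinked replicates 1 to 4 held 380, 399, 286 and 225 contacts there, the controls 201, 182, 81 and 86, or 740 ± 66.2 against 276 ± 45.6 CPM (SD, n = 4 each). The crosslinked libraries were all above the controls, and the log2 change was 1.39 (SE 0.13; edgeR, adjusted p = 1e-05). The boundary from 119001 into 120001, inside ndhA, from the ndhI and ndhA bin, rose from 267 ± 54.7 to 629 ± 56.5 CPM (log2 change 1.20, SE 0.14; edgeR, adjusted p = 3.59e-05). The boundary from 121001 into 122001, between the inner ndhA and the ndhA and ndhH bins, rose from 362 ± 41.8 to 741 ± 60.8 CPM (log2 change 1.01, SE 0.11; edgeR, adjusted p = 2.11e-05). These 3 boundaries had the fewest contacts of all 13 in the controls. Smaller rises were called inside ndhA at 120001 to 121001 (0.57) and from the ndhH, rps15 and ycf1 bin into a ycf1 bin at 123001 to 124001 (0.37). Another lay between the psaC bin and the ndhE and ndhG bin at 117001 to 118001 (0.36), inside ndhE. Each had no overlap.

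The remaining boundaries were called lower or were not called. The boundary from 118001 into 119001, between the ndhE and ndhG bin and the ndhI bin, fell from 2005 ± 378 to 1454 ± 67.9 CPM (log2 change -0.46, SE 0.12; edgeR, adjusted p = 0.00643), with no overlap. The boundary from ndhF into the rpl32 bin at 113001 (-0.39) and that from ccsA and ndhD into ndhD at 115001 to 116001 (-0.37) were called lower with overlapping groups. The boundary within ndhF, 111001 to 112001, held 1904 ± 81.8 and 1866 ± 311 CPM, a log2 change of 0.03 (SE 0.11) that was not called. The ndhH boundary at 122001 to 123001 likewise gave 0.01 (SE 0.10). Among same-bin pairs the psaC bin at 117001 had the largest drop, from 7246 ± 961 to 4809 ± 135 CPM (log2 change -0.59, SE 0.09; edgeR, adjusted p = 0.00022), followed by 119001 (-0.52), 115001 (-0.48) and 121001 (-0.40). Scaled among same-bin contacts alone, as above, the same bins gave smaller drops of -0.38, -0.31, -0.27 and -0.19. Without the filter, which adds the sparse pairs to the fit, the 3 largest boundary rises were 0.99, 0.81 and 0.59 and were not called (edgeR, adjusted p = 0.0745, 0.154 and 0.337), and the rise at 123001 to 124001 turned to -0.12.

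**Figure D2:**
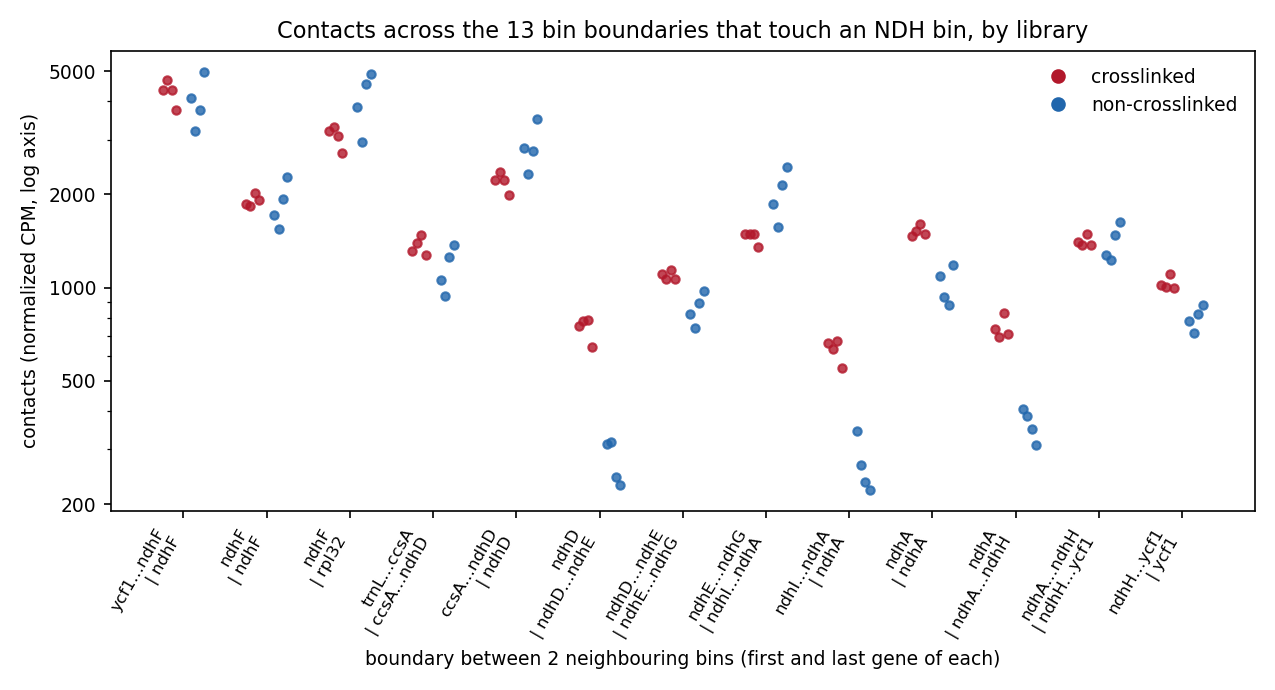
Contacts across the 13 boundaries between neighbouring bins that touch an NDH bin, in normalised CPM on a log axis, 1 point per library. At the boundaries from ndhD into the psaC bin, from the ndhI and ndhA bin into inner ndhA and from inner ndhA towards ndhH, every crosslinked library lies above every control.

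At 2 to 5 kb the NDH bins were mostly lower in crosslinked libraries relative to other bins: 9 of 11 were called lower and 0 higher, where 51.6% of all bins were called, 25.8% were called lower and 41.9% had groups without overlap. The median over the NDH bins was -0.76, beside 0.03 over all bins. Of all NDH contacts, however, this class made up 0.825% ± 0.312 in crosslinked and 0.487% ± 0.401 in non-crosslinked libraries (SD, n = 4 each). That share was higher on average in crosslinked libraries, with overlapping ranges. The inner ndhA bin at 120001 fell most, with 60, 33, 25 and 12 contacts in crosslinked replicates 1 to 4, or 3914, 3401, 4294 and 3337 CPM. In the controls it held 12843, 13189, 24020 and 10404 CPM, all above the crosslinked libraries (log2 change -1.74, SE 0.21; edgeR, adjusted p = 2.76e-14). The ccsA and ndhD bin at 115001 (-1.28), the ndhF bin at 111001 (-1.02) and the psaC bin at 117001 (-1.01) followed. The ndhA and ndhH bin at 122001 (-0.12, SE 0.23) and the ndhH bin at 123001 (0.03, SE 0.25) were not called. Only 2 to 106 contacts per bin and library lay behind these values, apart from 123001, which had 0 and 1 in non-crosslinked replicates 3 and 4. Scaled by library totals, 0 NDH bins were called (0 at an unadjusted p under 0.05), and all the called bins except 120001 (-0.14) turned positive, between 0.34 and 0.92, below the all-bin median of 1.57. DESeq2 called 7 lower.

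Long-range contacts of the NDH bins were likewise mostly lower in crosslinked libraries on the scale of the class: 7 bins were called lower and 1 higher, where 67.1% of all bins were called, 34.8% were called lower and 65.2% had groups without overlap. Summed over the 11 bins, they came to 65861, 75611, 66906 and 73629 CPM in crosslinked replicates 1 to 4, against 90059, 87167, 99072 and 102913 CPM in the controls, with no overlap. Every crosslinked library thus lay below every control. As a share of all long-range contacts, pairs with an NDH bin made up 14.4% ± 0.924 against 17.8% ± 1.10 (SD, n = 4 each), again without overlap. Of all NDH contacts, however, long-range ones made up 9.99% ± 4.29 in crosslinked and 7.01% ± 6.20 in non-crosslinked libraries. That share was higher on average in crosslinked libraries, with overlapping ranges. The median log2 change was -0.30 over the NDH bins, beside 0.05 over all bins.

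The size of the falls differed between bins. The inner ndhA bin at 120001 had 5089, 5656, 4124 and 5187 CPM in crosslinked and 10067, 10342, 10439 and 12617 CPM in non-crosslinked libraries (log2 change -1.07, SE 0.11; edgeR, adjusted p = 3.69e-07). The groups lay far apart, and the highest control was replicate 4. The bin of ccsA and the start of the ndhD bins at 115001 had 4981, 6656, 4933 and 6770 CPM against 10320, 10484, 13510 and 13977 CPM (log2 change -0.98, SE 0.14; edgeR, adjusted p = 9.37e-06). Here the deeper controls were the lower pair. The ndhI and ndhA bin at 119001 (-0.72), the ndhF bin at 111001 (-0.61), the ndhE and ndhG bin at 118001 (-0.39) and the ndhF bin at 112001 (-0.30) were lower without overlap. The ndhA bin at 121001 (-0.30) was called with overlapping groups, and the call was lost without crosslinked replicate 1 (-0.19) or 3 (-0.27) or non-crosslinked replicate 1 (-0.29) or 4 (-0.28).

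The ndhH bin at 123001 was the one NDH bin called higher, with 5927, 5459, 5391 and 6374 CPM in crosslinked and 4953, 4178, 5322 and 4948 CPM in non-crosslinked libraries (log2 change 0.30, SE 0.10; edgeR, adjusted p = 0.014). Its groups were close without overlapping, and it was not called without non-crosslinked replicate 2 (0.19; edgeR, adjusted p = 0.121), by DESeq2 (0.27) or in replicates 3 and 4 alone (0.11). The ndhD bin at 116001 (0.14, SE 0.10), the psaC bin at 117001 (-0.21, SE 0.11) and the ndhA and ndhH bin at 122001 (0.15, SE 0.09) were not called in either direction. Thus ndhD spanned -0.98 to 0.14 over its bins and ndhA -1.07 to 0.15. In level, 122001 held the most long-range contacts in crosslinked libraries (7663 ± 341 CPM) and 120001 the fewest (5014 ± 643 CPM). In the controls 115001 held the most (12073 ± 1940 CPM), followed by 120001 (10866 ± 1178 CPM), and 123001 the fewest (4850 ± 481 CPM).

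These calls rest on TMM scaling and on folded distance. By library totals, 0 NDH bins were called (0 at an unadjusted p under 0.05), and of the lower bins only 115001 (-0.12) and 120001 (-0.22) kept a negative value, while the other 5 lay between 0.09 and 0.55, below the all-bin median of 0.86. By circular distance, under which contacts between the repeat copies count as long-range, 0 were called either (0 at an unadjusted p under 0.05). With single-copy bins alone in the fit, 3 NDH bins were higher and 5 lower. Replicates 1 and 2 alone gave 1 higher and 5 lower, and replicates 3 and 4 alone gave 0 higher and 8 lower.

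**Figure D3:**
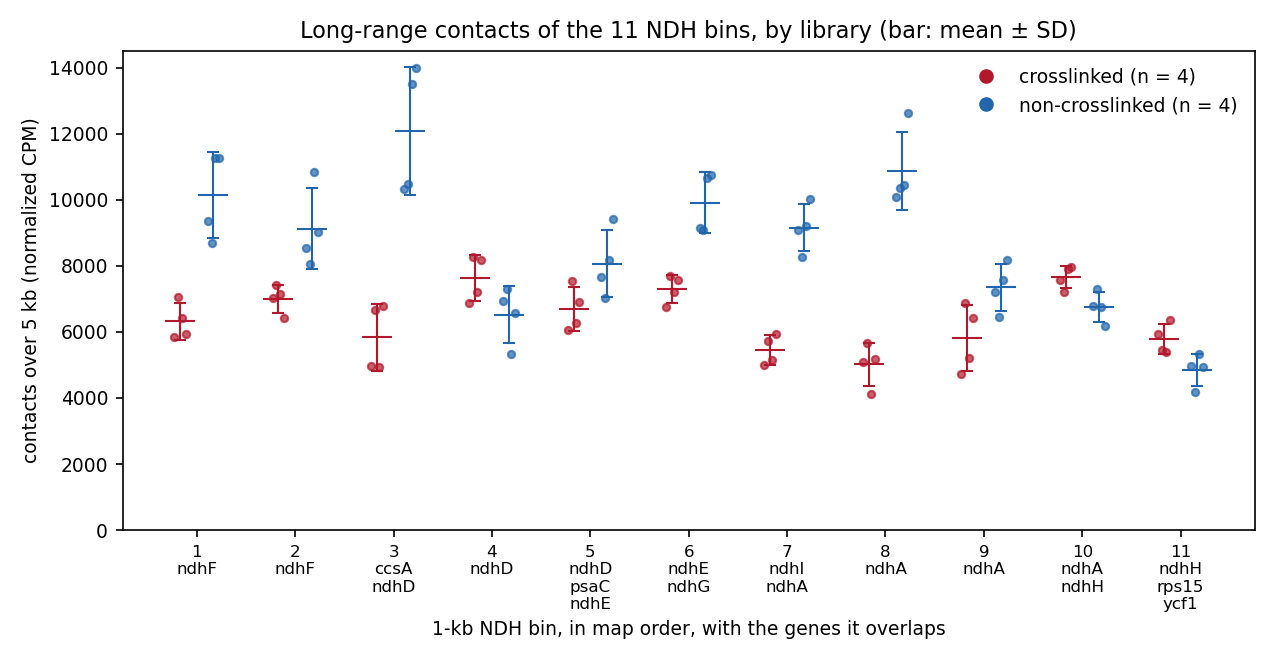
Long-range contacts (over 5 kb) of each NDH bin in normalised CPM, 1 point per library, with the mean ± SD of the 4 crosslinked and 4 non-crosslinked libraries. Controls lie above all crosslinked libraries at the ndhF bins, at the first ndhD bin and from ndhE to the inner ndhA bin at 120001, and below them at the ndhH bin at the right end. Scaled by library totals, 0 of these differences are called.

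The rest of the small single copy region gives the nearest comparison, since its 6 other bins hold rpl32, trnL, ccsA and ycf1 between and beside the NDH bins. There 5 of 6 bins were lower in long-range contacts, and the changes were larger, with a median of -1.58 and a lowest value of -2.20 in the ycf1 bin at 126001. At 2 to 5 kb, 5 of 6 were lower too, with a median of -1.94. ycf1 encodes a protein of the inner envelope import machinery, and rpl32 a ribosomal protein. Whether the NDH bins differ from these neighbours was not tested. The ndh genes elsewhere did not follow a common direction. The bins of ndhJ and of ndhJ with ndhK, which encode stroma-facing subunits, were higher in long-range contacts (0.40 and 0.83), whereas the ndhC bin next to them, of a membrane-arm gene, was lower (-1.04). Of the 7 bins of ndhB, also a membrane-arm gene and counted in both repeat copies, 4 were higher and 1 lower.

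The 5 bins whose long-range profile over the 8 libraries was most like that of the summed NDH bins all lay in the large single copy region. They were picked by the smallest root mean square difference of centred log2 CPM among 144 other bins, whose median difference was 0.38. The closest was the bin at 61001 of cemA and petA (0.06), the second gene encoding cytochrome f. The others held trnG, trnR and atpA at 9001 (0.06), psbJ, psbL and psbF at 63001 (0.08), trnD at 29001 (0.08), and trnG, trnfM and rps14 at 36001 (0.09). Their own long-range log2 changes ran from -0.47 to -0.27.

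Contacts among the NDH bins were next compared with the mean of all single-copy pairs at the same distance in the same library, NDH pairs included. Within the 9 bins from ndhD to ndhH, beyond adjacent bins, crosslinked replicates 1 to 4 had observed over expected contacts of 0.893, 0.857, 0.955 and 0.774, against 1.15, 0.985, 1.24 and 1.10 in the controls. By this ratio the crosslinked libraries were all below the controls, although the control values of replicates 3 and 4 rested on 12 and 19 contacts. Raw contacts of this set numbered 248, 163, 112 and 56 with crosslinks (replicates 1 to 4), beside 212, 116, 12 and 19 without. The counts themselves were thus not lower with crosslinks, and the lower ratio is relative to single-copy pairs at the same distance. Between ndhF and the ndhD to ndhH bins the ratio was 1.03 ± 0.152 in crosslinked and 1.68 ± 0.359 in non-crosslinked libraries (SD, n = 4 each), without overlap. Its control values of replicates 3 and 4, 1.73 and 2.16, rested on 11 and 21 contacts. Against the other bins of the small single copy region it was 0.768 ± 0.119 and 2.10 ± 0.449, the widest gap of the 5 sets compared. Against the large single copy region it was 1.04 ± 0.0195 and 0.958 ± 0.0458, and against the ndhC, ndhK and ndhJ bins 1.26 ± 0.148 and 0.960 ± 0.0866, both higher in every crosslinked library. The ratio sets contacts beside single-copy pairs at the same distance only. The shares and segment pairs below, where contacts with the large single copy region were lower, are scaled with the repeat included. With the ndhC, ndhK and ndhJ bins, non-crosslinked replicates 3 and 4 had 12 and 22 contacts.

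In raw contacts per pair, the NDH bins still met near partners more often than far ones in both groups. The ratio of contacts per pair at 2 to 5 kb over those at 20 to 50 kb, with single-copy partners, was 1.86, 1.77, 2.12 and 1.97 in crosslinked and 1.35, 1.38, 1.73 and 1.55 in non-crosslinked libraries. The crosslinked ratios were all higher, by 0.45 in the deeper and 0.41 in the shallower replicate pairs on average. For bins of the large single copy region the same ratio was 2.35 ± 0.216 and 0.874 ± 0.113, and for the other small single copy bins 2.16 ± 0.369 and 1.31 ± 0.0834 (SD, n = 4 each). In every control the NDH ratio was above 1 and the large single copy ratio below it.

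Beyond 5 kb the NDH bins had a larger share of their contacts with the inverted repeat, and a smaller one with the large single copy region, in crosslinked libraries. The repeat took 34.0%, 33.6%, 34.5% and 32.4% of NDH long-range contacts in crosslinked replicates 1 to 4, against 22.8%, 23.4%, 15.3% and 20.6% in the controls. Every crosslinked library lay above every control, and the widest Wilson 95% interval, that of non-crosslinked replicate 3, ran from 12.4% to 18.8%. The share of the large single copy region was 61.2% ± 0.329 and 71.9% ± 2.57 (SD, n = 4 each), and that of the small single copy region 4.36% to 6.23% and 6.52% to 9.03%, both without overlap. The repeat share was higher without overlap in other bins too: 29.0% ± 1.95 and 17.4% ± 1.51 for the other small single copy bins, and 31.6% ± 1.77 and 22.3% ± 3.37 for the large single copy bins.

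**Figure D4:**
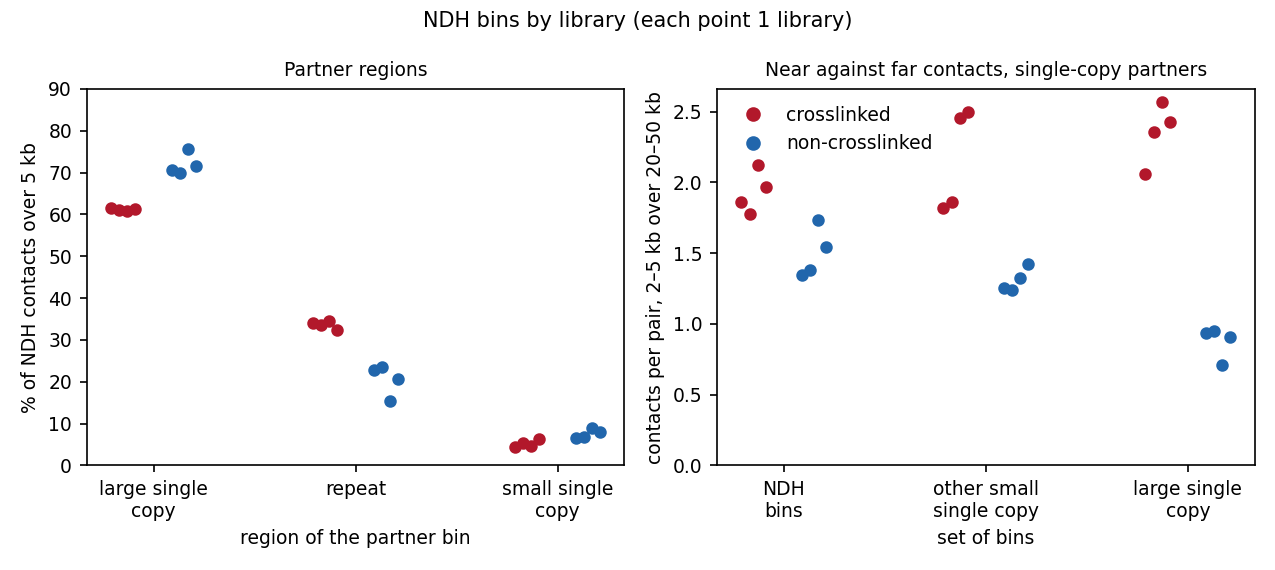
Left, percent of NDH contacts over 5 kb by the region of the partner bin; right, contacts per pair at 2 to 5 kb divided by those at 20 to 50 kb with single-copy partners, for 3 sets of bins; each point is 1 library. The repeat share is 32.4% to 34.5% in crosslinked and 15.3% to 23.4% in non-crosslinked libraries.

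By single partner bin, 148 of 155 passed the filter, and 33 were higher and 38 lower, which is 48% of those tested. In the repeat 26 of 54 partner bins were higher and 1 lower. These 54 bins are 2 copies of 27 places, so the same place can enter the count in both copies. In the large single copy region 6 of 84 were higher and 33 lower, and in the small single copy region 1 of 10 tested was higher and 4 lower. Of the 5 named rises, 3 lay in bins of ycf2 alone, the long repeat gene of an inner-envelope motor complex, and 1 in a bin that ycf2 shares with trnI, rpl23 and rpl2, at 152001. The bin at 88001 met NDH bins 45, 24, 22 and 7 times in crosslinked and 13, 7, 0 and 2 times in non-crosslinked libraries (log2 change 1.70, SE 0.25; edgeR, adjusted p = 7e-07). Its groups did not overlap once scaled, at 4135 to 8440 and 0 to 2654 CPM. The bin at 146001, whose 52, 28, 21 and 9 contacts stood against 18, 8, 1 and 3, rose from 1504 to 3982 CPM in the controls to 5316 to 8056 CPM, and the log2 changes at 92001 and 152001 were 1.24 and 1.13. At least at 88001 and 146001, too few controls reached the minimum of the filter on low counts. Both bins thus entered the test through the group where they were high. Without the filter, 69 of 155 partner bins were called. The repeat holds ycf2 in both copies, and how reads were assigned to a copy is not given in the sources used here. The bins at 92001 and 146001 are counterparts of each other in the copies, so their rises are not separate places. The named rise outside the repeat was at 25001 in rpoB, of the plastid RNA polymerase (60, 37, 24 and 17 against 30, 23, 1 and 2 contacts; log2 change 1.07, SE 0.22; edgeR, adjusted p = 0.000112).

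The largest fall among partners was at 65001, with petL and petG of the cytochrome b6f complex. It met NDH bins 32, 18, 8 and 4 times in crosslinked and 150, 73, 14 and 25 times in non-crosslinked libraries, or 2363 to 4195 against 13720 to 33179 CPM. All crosslinked libraries lay well below the controls (log2 change -2.16, SE 0.23; edgeR, adjusted p = 4.34e-10). The ycf1 bin at 126001 followed with 25, 17, 8 and 9 against 121, 69, 7 and 15 contacts (log2 change -1.86, SE 0.20; edgeR, adjusted p = 4.34e-10). Further falls were at 27001 of trnC, a tRNA gene (-1.76), and 13001 of atpH, the ATP synthase ring subunit (-1.59). Each partner's own long-range contacts with the whole map moved alongside: 65001 by -1.99, 126001 by -2.20, 27001 by -1.68 and 13001 by -1.53, and among the rises 88001 by 1.67, 146001 by 1.67, 92001 by 1.26, 152001 by 1.17 and 25001 by 1.08. The part of these changes in the NDH partner values was not tested.

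Partners were also counted by gene list, beside the median log2 change of 0.04 over all 148 partner bins. Genes of the repeat enter these lists with the bins of both copies. Of 10 bins with other ndh genes 5 were higher and 1 lower (median 0.44), the fall being ndhC (-0.92). Of 9 ATP synthase bins 6 were lower and 1, of atpE and atpB at 52001 (0.56), was higher (median -0.68). Of 14 RNA polymerase bins 6 were lower and 1 higher, and of 13 photosystem II bins 4 were lower and 1 higher. Of 12 photosystem I bins 1 was higher and 1 lower, so 10 were not called. Cytochrome b6f bins gave 2 lower of 9, rbcL, the large Rubisco subunit, 2 lower of 3, and rRNA bins 3 higher and 0 lower of 12. Ribosomal protein bins gave 5 higher and 10 lower of 26, tRNA bins 10 higher and 8 lower of 37, and the remaining genes, mostly ycf2 and ycf1, 17 higher and 7 lower of 35.

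The partner counts varied with the libraries and the tool used. Replicates 1 and 2 alone gave 56 calls and replicates 3 and 4 alone gave 12, and without non-crosslinked replicate 1 the number was 43. DESeq2 gave 31, and library totals gave 0 (3 at an unadjusted p under 0.05), with an all-partner median of 0.55. The partners named here kept their direction under all of these alternatives, and without each library in turn.

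**Figure D5:**
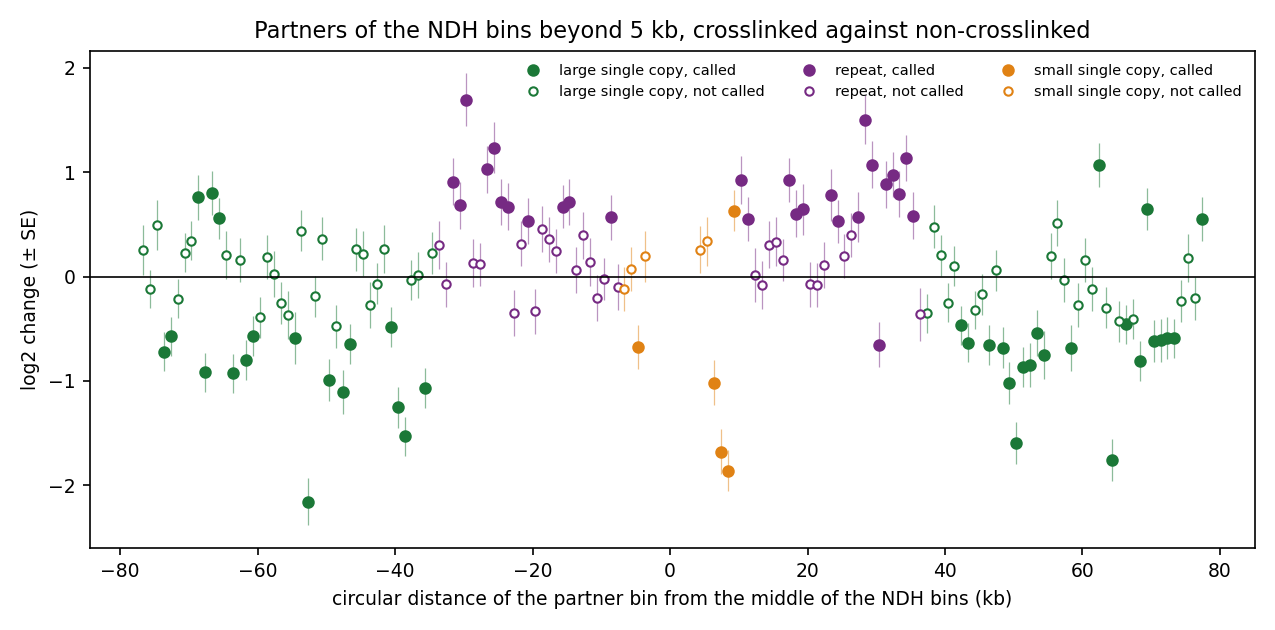
Log2 change (± SE), crosslinked over non-crosslinked, of the contacts of each of 148 partner bins with the NDH bins beyond 5 kb, by circular distance of the partner from the middle of the NDH bins; filled points have an adjusted p under 0.05. Partners in the repeat are mostly at or above 0, called partners in the large single copy region are mostly below it, and 0 are called when scaled by library totals.

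Contacts were last summed between 29 segments of the map to gather counts, repeat tiles together with their images in the other copy, with 4 NDH segments: ndhF (111001 to 113000), ndhD with psaC (115001 to 118000), ndhE to the first ndhA bins (118001 to 121000) and ndhA with ndhH (121001 to 124000). Of 425 segment pairs tested 56% were called, 27.3% higher and 28.7% lower, and 45.9% had groups without overlap. Among the 106 with an NDH segment 6 were higher and 39 lower, and 36 had groups without overlap. The 56 pairs with the large single copy region gave 0 higher and 33 lower, the 36 with the repeat 5 higher and 0 lower, and the 14 within the small single copy region 1 higher and 6 lower.

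The ndhE to ndhA segment was lower with 13 of 14 tiles of the large single copy region, ndhF with 9, ndhD with psaC with 8 and ndhA with ndhH with 3. The differences between segments were not tested. The largest fall joined the ndhE to ndhA segment to the tile from 12001 to 18000, which holds atpF, atpH, atpI, rps2 and rpoC2. That pair had 62, 25, 15 and 10 contacts in crosslinked and 161, 97, 13 and 16 in non-crosslinked libraries (log2 change -1.74, SE 0.19; edgeR, adjusted p = 9.67e-09), and its scaled values did not overlap. The same tile was lower with ndhF (-1.41). The ndhE to ndhA segment was also lower with ycf1 at 124001 to 128000 (-1.57), with rpoB, trnC, petN, psbM and trnD at 24001 to 30000 (-1.24) and with petG to clpP at 66001 to 72000 (-1.23).

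The largest rise joined neighbours within the gene block. The ndhE to ndhA segment met its neighbour of ndhA with ndhH 85, 48, 39 and 13 times in crosslinked and 48, 22, 1 and 4 times in non-crosslinked libraries, counting pairs 2 kb or more apart. In scaled values this was 1432 ± 362 against 684 ± 246 CPM (SD, n = 4 each) with no overlap (log2 change 0.88, SE 0.22; edgeR, adjusted p = 0.00121). The ndhA with ndhH segment also rose with ycf2 at 87001 to 90000 (0.87). It rose too with the repeat end at 108001 to 111000, which holds trnR, trnN and parts of ycf1 and ndhF (0.84). That tile is summed with its image, which lies beyond the ndhH end of the small single copy region. The ndhF segment rose with ycf2 at 90001 to 93000 (0.69; edgeR, adjusted p = 0.0171), a call lost without crosslinked replicate 3 (0.59) or non-crosslinked replicate 1 (0.62). By library totals no segment pair with an NDH segment was called (0 at an unadjusted p under 0.05), where the median of all segment pairs was 0.80, and the named rises and falls kept their direction.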

How the data were processed

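The deposited table of each library gives, per the file headers, counts of contacts between 1-kb bins of the plastid chromosome. The submitters' processing notes name Trim Galore 0.4.1, Juicer and TAIR10. Read filters and the treatment of reads that map to both repeat copies are not given in the sources used here. Column names were matched to the library titles, and 0 columns of other samples were present.

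Counts were summed per bin and distance class, per partner bin and per segment pair, and CPM and log2 changes were computed here. Each table was fitted whole with edgeR 4.0.16 (quasi-likelihood test, TMM, prior count 2, R 4.3.3) and p-values were adjusted by Benjamini-Hochberg over all features tested. Bin pairs, partner bins and segment pairs were filtered on low counts by filterByExpr with a minimum count of 10. The tables of bin totals and distance classes were not filtered. DESeq2 1.42.0 was an alternative, as were library totals, no filter, other distances, a replicate block and libraries left out. Named pairs, partners and segment pairs were up to 5 rises and 5 falls of the largest size among those called without overlap, skipping those whose 2 ends both lay within 1 bin of one already named. The result for 1 partner bin chosen by this rule is not reported here. Members, lists and rules were chosen with earlier results of these data known. Gene names came from the RefSeq table of the plastid genome with 129 genes.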

Additional observations from a re-analysis of the deposited data

Results flagged for a closer look

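In 110 groups of 4 libraries, 3 single libraries stood apart from the other 3 by Dixon's test, which flags about 1 in 20 groups by chance. In bin totals the ndhA bin at 121001 had 3523 CPM in crosslinked replicate 1, below 3812, 3841 and 3853 CPM in the others. At 2 to 5 kb the ndhE and ndhG bin at 118001 had 14860 CPM in non-crosslinked replicate 4, above 8007, 8602 and 8724 CPM. In long-range contacts the ndhA bin at 120001 had 12620 CPM in non-crosslinked replicate 4, above 10070, 10340 and 10440 CPM.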

How the results depend on the processing

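Over all settings, values of single bins, pairs and segments that were called kept their direction and call in 855 cases, lost the call in 99 and turned in 22, and values not called stayed so in 186 cases, became called in 20 and turned in 31. Where no reason is named, the cause was not tested. Low counts limit the classes beyond adjacent bins most, since non-crosslinked replicates 3 and 4 hold few such contacts. Their totals of 357017 and 408539 contacts were similar to 368149 and 351828 in crosslinked replicates 3 and 4. Of these, 2649 and 4228 were long-range in the controls, against 17612 and 10979.

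By library totals the number of NDH bins called was 4 in bin totals (4 higher, 0 lower, against 2 and 4), 5 in adjacent contacts (5 higher, 0 lower, against 3 and 7), and 0 at 2 to 5 kb, in long-range contacts, partner bins and segment pairs. Values that turned under library totals were, in bin totals, 111001 (0.18), 116001 (0.18), 118001 (0.06) and 119001 (0.01), in same-bin contacts 111001 (-0.09), 116001 (-0.09) and 123001 (-0.10), and in adjacent contacts 111001 (0.16), 122001 (0.37) and 123001 (0.23). At 2 to 5 kb they were 111001 (0.57), 112001 (0.88), 115001 (0.34), 116001 (0.81), 117001 (0.55), 118001 (0.92), 119001 (0.83), 121001 (0.79) and 122001 (1.41), and in long-range contacts 111001 (0.24), 112001 (0.55), 117001 (0.61), 118001 (0.44), 119001 (0.09) and 121001 (0.48).

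By circular distance, which counts contacts between repeat copies as long-range, 0 NDH bins were called in long-range contacts, and 111001 (0.07), 112001 (0.34), 117001 (0.41), 118001 (0.24) and 121001 (0.31) turned, as did 123001 at 2 to 5 kb (-0.13). Without contacts between repeat copies the 6 calls in bin totals were 0 higher and 6 lower, and 120001 (-0.03), 122001 (-0.01) and 123001 (-0.15) turned. Single-copy bins alone gave 3 higher and 5 lower in long-range contacts, and 122001 turned in adjacent contacts (0.05) and at 2 to 5 kb (0.04).

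With fewer samples, replicates 1 and 2 alone gave 3 calls in bin totals, 3 in same-bin contacts and 31 bin pairs of 58 tested, and 120001 in bin totals (-0.06), 112001 in same-bin contacts (0.08) and 123001 at 2 to 5 kb (-0.02) turned. Replicates 3 and 4 alone gave 4 calls at 2 to 5 kb, 12 partner bins and 23 segment pairs, and 123001 in bin totals (-0.04) and 111001 (-0.02), 116001 (-0.01) and 123001 (-0.09) in same-bin contacts turned. DESeq2 called 31 partner bins against 71, and 122001 at 2 to 5 kb turned (0.01). Without the filter the pair 123001 with 124001 turned (-0.12).

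Leaving out 1 library gave 43 to 71 partner bins, the lowest without non-crosslinked replicate 1, and values crossed 0 for 123001 in bin totals (-0.0035 to 0.11), 111001 (-0.0027 to 0.08), 112001 (-0.10 to 0.02) and 123001 (-0.02 to 0.06) in same-bin contacts, and 123001 at 2 to 5 kb (-0.09 to 0.23).

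Equal replicate numbers were not taken as pairs, since not every same-numbered pair deviated together: the correlations for numbers 1 to 4 were 0.63, -0.21, 0.17 and 0.36 in bin totals and 0.45, -0.28, -0.28 and 0.24 in long-range contacts. With the replicate number as a block the counts were 6, 6, 9, 9 and 8 NDH bins in the 5 classes, 18 bin pairs, 68 partner bins and 41 segment pairs, and among named values the calls at 111001 in adjacent contacts (-0.23; edgeR, adjusted p = 0.109) and for ycf2 with ndhF (0.65; edgeR, adjusted p = 0.0696) were lost.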
